A study of Mus musculus with 24 samples.

Results

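The genes described here are the UDP-glucuronosyltransferases (Ugt genes) and the cytosolic sulfotransferases (Sult genes) of mouse liver. Members were all probe sets whose only gene symbol in the platform annotation begins with Ugt or Sult followed by a digit, a rule that used no measured value. It found 24 genes with 29 probe sets, of 18193 genes and 45101 probe sets in all: 14 of 11 Ugt genes and 15 of 13 Sult genes. A further 3 probe sets are shared by 8 transcripts of the Ugt1a locus and 1 is shared by Ugt2a1 and Ugt2a2, and these are given apart.

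Glucuronosyltransferases sit in the membrane of the endoplasmic reticulum and add glucuronic acid from UDP-glucuronate to phenols, steroids, bilirubin and bile acids. Sulfotransferases work in the cytosol and add a sulphonate group from PAPS (3'-phosphoadenosine-5'-phosphosulphate) to phenols, steroids and amines. Both kinds of enzyme are abundant in hepatocytes and make plant polyphenols soluble for excretion, among them phloretin, the phenol that is left when the glucose of phloridzin is removed.

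Phloridzin, an apple glucoside that blocks sodium-glucose cotransporters, was mixed into the purified AIN-93G diet of male BALB/c mice that were 6 weeks old on arrival, and liver RNA was hybridised to Affymetrix arrays after 14 days of feeding. The 4 diets held 0% (control), 0.1%, 0.5% or 1.0% phloridzin, all groups ate the same base diet otherwise, and the labels describe 6 mice per diet with 3 to a cage. The series title names blood glucose and hepatic gene expression as the subject; blood glucose was not analysed here. The labels do not say which mice shared a cage.

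Fewer than 24 distinct RNA samples lay behind the 24 arrays. In 13 array pairs the log2 difference over 1463 bright genes had an SD of 0.0436 to 0.0577, and these were read as repeat hybridisations of 1 RNA. A further 8 pairs at 0.108 to 0.137 matched in their most variable genes and were joined too, while the other 255 pairs were at 0.164 or above. Repeat arrays were therefore reduced to their mean, and 11 RNA samples remained, although the labels describe RNA of each mouse. These were 4 control samples (replicates 1 and 3, replicates 2 and 4, replicate 5 and replicate 6), 3 samples at 0.1% (replicates 2, 4 and 5), 2 at 0.5% (replicates 1, 2, 3 and 6, and replicates 4 and 5) and 2 at 1.0% (replicates 2, 3, 5 and 6, and replicate 4). Per-sample values are given in this order, with the diets from low to high dose. RNA found under the labels of both 0.1% (replicates 1, 3 and 6) and 1.0% (replicate 1) entered no comparison. It is not known if the 11 samples are 11 mice. The p-values describe the spread between the samples as they stand, and the number of RNA samples limits the precision.

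Values are log2 signals after quantile normalization, with a floor at 3.00, and they rank samples within a probe set and not probe sets against each other. The liver markers were bright: Alb read 13.41 to 13.59, Apoa1 13.87 to 14.06 and Ttr 13.52 to 13.67 over the 11 samples. The kidney gene Umod and the pancreas gene Cpa1 did not exceed 3.73 and 3.25, but other markers of these organs read higher. Among kidney genes Kap read 4.33 to 5.09, and Slc34a1 and Aqp2 reached 4.36 and 4.09. Among pancreas genes Cela2a reached 4.69, and Prss2 read 3.26 to 5.37 with its highest value in 0.1% replicate 5. Several samples stood apart from the rest. The 0.5% sample of replicates 1, 2, 3 and 6 had a mean acute phase score (mean log2 difference from control over 14 genes) of 1.72, against -0.11 to 0.12 in control samples. Replicate 4 at 0.1% had a 3'-to-5' difference of the Actb control probe sets of 2.32, against 1.31 to 1.54 in control samples. Replicate 5 at 0.1% had a hepatocyte marker score of -0.25 over 7 genes, against -0.06 to 0.05 in control samples, and 4 of the 7 were lower there with a median of -0.05. Apob, at -0.996 from the control mean, supplied most of that score, which was -0.13 over the other 6 genes, against -0.01 to 0.01 in control samples. Over these 6 genes 0.1% replicates 2 and 4 were at -0.06 and -0.04. The 0.5% samples were at -0.07 and -0.11, and the 1.0% samples at -0.02 and 0.02. Over all 7 genes 0.1% replicate 2 and 0.5% replicates 4 and 5 were also below control, at -0.09 and -0.07. In liver tissue, fewer cells of a type and less RNA per cell cannot be told apart.

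Of the 29 member probe sets, 19 of 16 genes passed the filter that left out the lowest 40% of probe sets by mean over all samples (12 of 10 Ugt genes and 7 of 6 Sult genes). All 8 Ugt2b, all 3 Ugt3a and the Ugt2a3 probe sets passed, and so did Sult1a1, Sult1b1, Sult1c2, Sult1d1, Sult2a8 and Sult5a1. The 10 others, of 8 genes, lay at or near the floor in every diet. Sult3a1 (a sulfotransferase of amines in mouse), Sult6b1, Sult1e1 (the oestrogen sulfotransferase) and 1 of 2 Sult4a1 probe sets (a brain member without a known substrate) read 3.00 in all 11 samples. Sult1c1 did not exceed 3.21, Sult2b1 (a sulfotransferase of cholesterol and other hydroxysteroids) 3.31, and the second Sult4a1 probe set 3.10. Ugt8a, which makes galactosylceramide for myelin, reached 3.07 and 3.80 in its 2 probe sets. Sult2a2, a hydroxysteroid sulfotransferase, reached 4.07 in control replicate 6, against 3.00 to 3.33 in the other 10 samples. At the floor a value bounds the signal, so no change is given for these genes.

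No transferase probe set passed the threshold in any comparison of diets. In limma (Benjamini-Hochberg adjusted over all 27001 probe sets tested), 0 of 19 members had an adjusted p under 0.05 at 0.1%, 0.5% or 1.0% phloridzin against control, where 0.0037%, 0% and 0.0037% of all tested probe sets were called. The F-test over the 4 diets called 0 members and 0.00741% of all probe sets, and the slope on dose called 0 members and 0% of all probe sets. The lowest adjusted p of a member was 0.413 at 0.1%, 0.937 at 0.5%, 0.688 at 1.0%, 0.367 in the F-test and 0.507 for the slope. At an unadjusted p under 0.05 the comparisons held 1, 1 and 2 members, or 5.26%, 5.26% and 10.5% of the 19, against 9.26%, 5.22% and 6.51% of all probe sets. A p that misses the threshold does not show that values were alike, so the intervals are given with the changes.

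The changes of the members were mostly small on the log2 scale. The largest change in any diet against control was under 0.5 on the log2 scale for 16 of the 19 probe sets and under 0.25 for 8 of them. The exceptions were Ugt2b34 (1427960_at) at 0.1% and Sult1c2 and Ugt2b37 at 1.0%. These are 1, 0 and 2 members at the 3 doses, where 10.6%, 9.54% and 11.5% of all tested probe sets changed by over 0.5. The 95% interval of the change lay within 1 either way for 18 probe sets at 0.1%, all 19 at 0.5% and 17 at 1.0%, and within 0.5 either way for 11, 7 and 9 of them. Between RNA samples of 1 diet the SD of a member ranged from 0.0759 to 0.412 with a median of 0.222, against a median of 0.297 over all tested probe sets. Repeat arrays of 1 RNA differed less, with an SD of 0.00969 to 0.123 and a median of 0.0293, and the spread between RNA samples exceeded it for all 19. These arrays had been grouped by an SD of their log2 difference under 0.08, so a small spread was built in. Pairs joined by their most variable genes were not counted in it. In 1 such RNA, 0.5% replicates 1, 2, 3 and 6, Ugt2b34 (1427960_at) read 10.55, 10.31, 10.27 and 10.50. The largest change of a member exceeded its own SD between RNA samples for 17 of 19, or 89.5%, all but Sult1a1 and Ugt2b1, and did so for 61.7% of all tested probe sets.

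**Figure D1:**
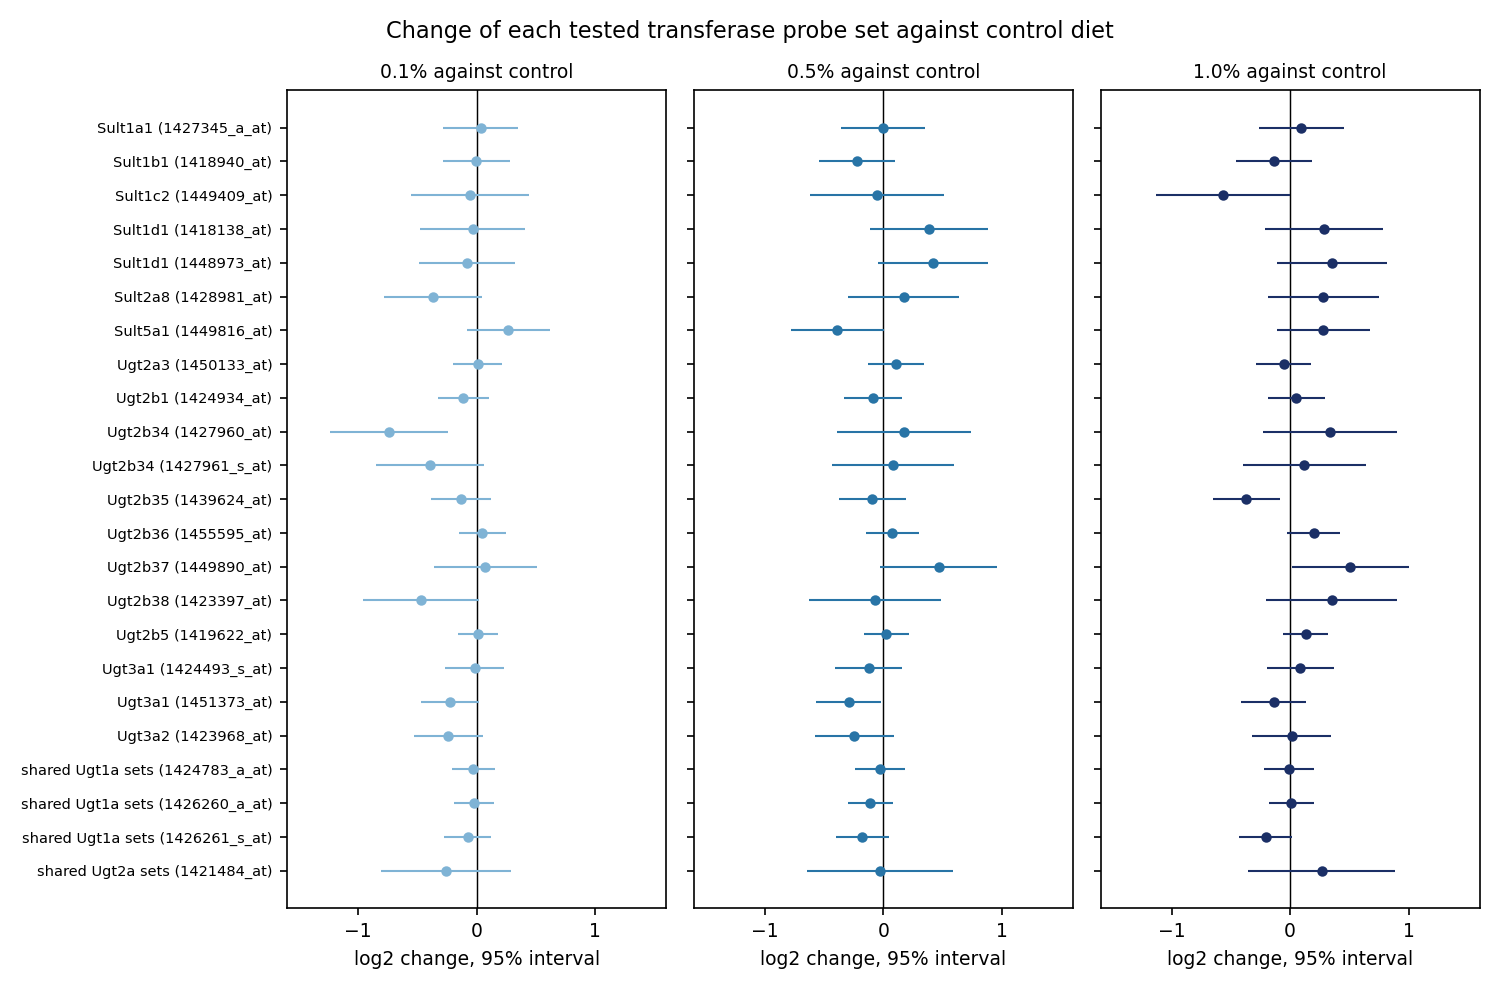
Log2 change against control (x axis, points) with its 95% interval (lines) for the 19 tested member probe sets and the 4 shared probe sets (rows), in 1 panel per phloridzin dose. Most intervals cross 0, that of Ugt2b34 (1427960_at) at 0.1% lies between -1.24 and -0.24, and none of the changes passed the adjusted threshold.

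The members had a median change of -0.06 at 0.1%, -0.00 at 0.5% and 0.12 at 1.0%, against -0.00, -0.01 and -0.01 over all tested probe sets. At 0.1% 6 were higher and 13 lower than control, at 0.5% 9 higher and 10 lower, and at 1.0% 14 higher and 5 lower. Those 3 comparisons share the control samples, so their directions are not independent. The lean towards higher values at 1.0% depended on the scaling. With arrays centred on their median it was -0.04 for the members and -0.16 for all probe sets, and without scaling -0.20 and -0.31, so that in each the members lay above all probe sets. Without scaling 10 of the 15 probe sets described by name turned negative at 1.0%, those of Sult1a1, Sult1d1 (both), Sult2a8, Sult5a1, Ugt2b1, Ugt2b34 (1427960_at), Ugt2b38, Ugt3a1 (1424493_s_at) and Ugt3a2. Their values lay between -0.44 for Ugt3a2 and -0.04 for Sult2a8, against the -0.31 of all probe sets.

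The Ugt2b genes, which glucuronidate steroids, bile acids and many drugs, form a cluster on chromosome 5. In the GRCm38.p6 annotation Ugt2b34, Ugt2b1, Ugt2b35, Ugt2b36, Ugt2b5, Ugt2b37, Ugt2a3 and Ugt2b38 follow each other with no other protein-coding gene between them, and Sult1b1, Sult1d1 and Sult1e1 lie beyond Ugt2a1 and Ugt2a2. Ugt2b34 and Sult1d1 were the members of this stretch that departed most from control in 1 of the 0.1% samples, by -1.51 and -0.73 (1427960_at and 1448973_at in replicate 5), while Ugt2b1 and Ugt2b5 in the same sample were at -0.20 and -0.13. The 250 bases before the RefSeq start of these 4 genes are shown for that contrast (GRCm38.p6, minus strand, 5' to 3'), with capitals at each match to strings of the site of the hepatocyte factor HNF1. The strings searched were GTTAAT with its reverse complement, written ATTAAC, and the palindrome GTTAAC, so both strands were read.
Ugt2b34 chr5:86906938-86907187: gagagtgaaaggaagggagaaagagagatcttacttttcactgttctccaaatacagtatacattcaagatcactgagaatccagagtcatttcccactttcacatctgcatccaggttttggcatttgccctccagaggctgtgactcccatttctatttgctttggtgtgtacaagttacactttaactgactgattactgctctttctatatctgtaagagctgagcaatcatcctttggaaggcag
Ugt2b1 chr5:86926504-86926753: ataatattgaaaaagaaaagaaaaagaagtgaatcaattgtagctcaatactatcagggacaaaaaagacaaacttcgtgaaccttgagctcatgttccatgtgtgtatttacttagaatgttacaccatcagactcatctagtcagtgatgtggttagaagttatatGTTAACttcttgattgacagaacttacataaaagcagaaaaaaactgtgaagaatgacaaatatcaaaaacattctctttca
Ugt2b5 chr5:87140341-87140590: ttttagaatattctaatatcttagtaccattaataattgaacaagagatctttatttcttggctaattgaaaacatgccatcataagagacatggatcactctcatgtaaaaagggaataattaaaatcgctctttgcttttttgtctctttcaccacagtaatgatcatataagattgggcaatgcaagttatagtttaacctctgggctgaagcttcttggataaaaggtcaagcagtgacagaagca
Sult1d1 chr5:87569007-87569256: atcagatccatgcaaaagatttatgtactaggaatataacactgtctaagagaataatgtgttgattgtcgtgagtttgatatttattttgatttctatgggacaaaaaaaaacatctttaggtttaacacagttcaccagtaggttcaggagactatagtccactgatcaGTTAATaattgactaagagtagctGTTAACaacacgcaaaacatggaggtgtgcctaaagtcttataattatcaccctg

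Such strings were found at 0 places in the Ugt2b34 window, 1 in the Ugt2b1 window, 0 in the Ugt2b5 window and 2 in the Sult1d1 window. Of all 32851 promoter windows of this length in the table, 8.75% held at least 1 such string. Among the 17 windows of tested member genes (15 of the 16 genes had an entry, some with more than 1 start), 6 did, or 35.3%, those of Sult1a1, Sult1b1, Sult1d1, Ugt2a3, Ugt2b1 and Ugt3a1. A string match is a description of these letters.

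Ugt2b34 had the lowest p of any member over the diets. Its probe set 1427960_at read 10.66, 10.32, 10.38 and 9.95 in control liver, 9.96, 9.98 and 8.82 at 0.1%, 10.41 and 10.59 at 0.5%, and 10.79 and 10.53 at 1.0%. The 0.1% samples were the low ones, with replicate 5 far below the other two, but control replicate 6 lay within their range, so the groups overlapped. At 0.1% the mean was 9.59 ± 0.66 (SD, n = 3), against 10.33 ± 0.29 (SD, n = 4) in control liver. The change was -0.74 (95% interval -1.24 to -0.24, 0.598-fold), with a limma p of 0.00652 and an adjusted p of 0.413. Without replicate 5 it was -0.36. At 0.5% and 1.0% the changes against control were 0.17 (-0.39 to 0.74) and 0.33 (-0.23 to 0.90). The second probe set, 1427961_s_at, read 11.58, 11.41, 11.49 and 11.15 in control liver, 11.34, 11.43 and 10.27 at 0.1%, 11.36 and 11.61 at 0.5%, and 11.42 and 11.64 at 1.0%. It showed the same low value in replicate 5 alone, with the other two 0.1% samples inside the control range, and its change at 0.1% was -0.39 (-0.85 to 0.06).

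Between doses, Ugt2b34 (1427960_at) at 1.0% exceeded 0.1% by 1.08 (0.48 to 1.67), the lowest p of all member tests at 0.00167 and an adjusted p of 0.197 in limma. At 0.5% it exceeded 0.1% by 0.91 (0.32 to 1.51, adjusted p = 0.382). Without 0.1% replicate 5 these differences were 0.69 (limma adjusted p = 0.255) and 0.53 (limma adjusted p = 0.52). All samples at both higher doses lay above all 3 at 0.1%. Non-overlap in either direction held for 8 of 19 members between 1.0% and 0.1%, where 25.6% of all probe sets showed it. It held for 4 members between 0.5% and 0.1%, where 23.3% did. It held for 10 members between 1.0% and 0.5%, where 36.6% did. In these 3 comparisons limma called 0 members and 0% of all probe sets, with 3, 4 and 1 members against 12.4%, 9.7% and 4.27% of all probe sets at an unadjusted p under 0.05.

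Ugt2b38 (1423397_at) varied widely within diets. It read 7.82, 7.23, 8.18 and 7.42 in control liver, 7.21, 7.08 and 7.27 at 0.1%, 7.36 and 7.82 at 0.5%, and 8.42 and 7.60 at 1.0%. The 3 samples at 0.1% were tightly grouped at the low end, and the control samples spanned most of the range of the 11. The change was -0.47 at 0.1% (-0.96 to 0.02), -0.07 at 0.5% (-0.62 to 0.48) and 0.35 at 1.0% (-0.20 to 0.90). Without replicate 4 at 1.0% the last of these was 0.76.

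Ugt2b35 and Ugt2b37 were the members with an unadjusted p under 0.05 at 1.0%, in opposite directions. Ugt2b35 (1439624_at) read 11.54, 11.32, 11.78 and 11.52 in control liver, 11.57, 11.32 and 11.34 at 0.1%, 11.34 and 11.56 at 0.5%, and 11.05 and 11.29 at 1.0%. Both 1.0% samples lay below every control sample, one of them by a narrow margin. The change at 1.0% was -0.37 (-0.65 to -0.09, 0.773-fold, limma adjusted p = 0.688), and without replicates 2, 3, 5 and 6 it was -0.25. Ugt2b37 (1449890_at), a dim probe set, read 5.25, 5.32, 5.91 and 5.58 in control liver, 5.41, 5.83 and 5.52 at 0.1%, 5.83 and 6.14 at 0.5%, and 6.09 and 5.95 at 1.0%. Both 1.0% samples lay just above the highest control sample, and the 0.5% samples overlapped it. The change was 0.07 at 0.1% (-0.36 to 0.51), 0.47 at 0.5% (-0.02 to 0.96) and 0.51 at 1.0% (0.01 to 1.00, limma adjusted p = 0.759). Per 1% of phloridzin in the diet, the slope was 0.55 ± 0.21 for Ugt2b37 and -0.31 ± 0.12 for Ugt2b35 (SE, limma adjusted p = 0.507 and 0.527).

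The remaining genes of the cluster were steady. Ugt2b1 (1424934_at) read 12.88, 12.78, 12.96 and 12.65 in control liver, 12.88, 12.62 and 12.61 at 0.1%, 12.60 and 12.86 at 0.5%, and 12.84 and 12.89 at 1.0%. Every diet overlapped control, and the changes were -0.11 (-0.33 to 0.10), -0.09 (-0.33 to 0.16) and 0.05 (-0.19 to 0.30). Ugt2b5 (1419622_at) had the lowest spread of any tested member and ranged from 12.60 to 12.86 over all samples. Its 1.0% samples, at 12.86 and 12.85, lay above all 4 control samples by a narrow margin, and the change was 0.13 (-0.06 to 0.32). Ugt2b36 (1455595_at) changed by 0.05, 0.07 and 0.20 and Ugt2a3 (1450133_at) by 0.01, 0.10 and -0.06 at 0.1%, 0.5% and 1.0%. No interval of Ugt2b1, Ugt2b5, Ugt2b36 or Ugt2a3 reached 0.5 in either direction.

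Over the 8 Ugt2b probe sets under quantile normalization, the median change was -0.12 at 0.1% with 3 higher and 5 lower, 0.05 at 0.5% with 5 higher and 3 lower, and 0.16 at 1.0% with 7 higher and 1 lower. The 2 Ugt2b34 probe sets share a gene and are not independent.

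**Figure D2:**
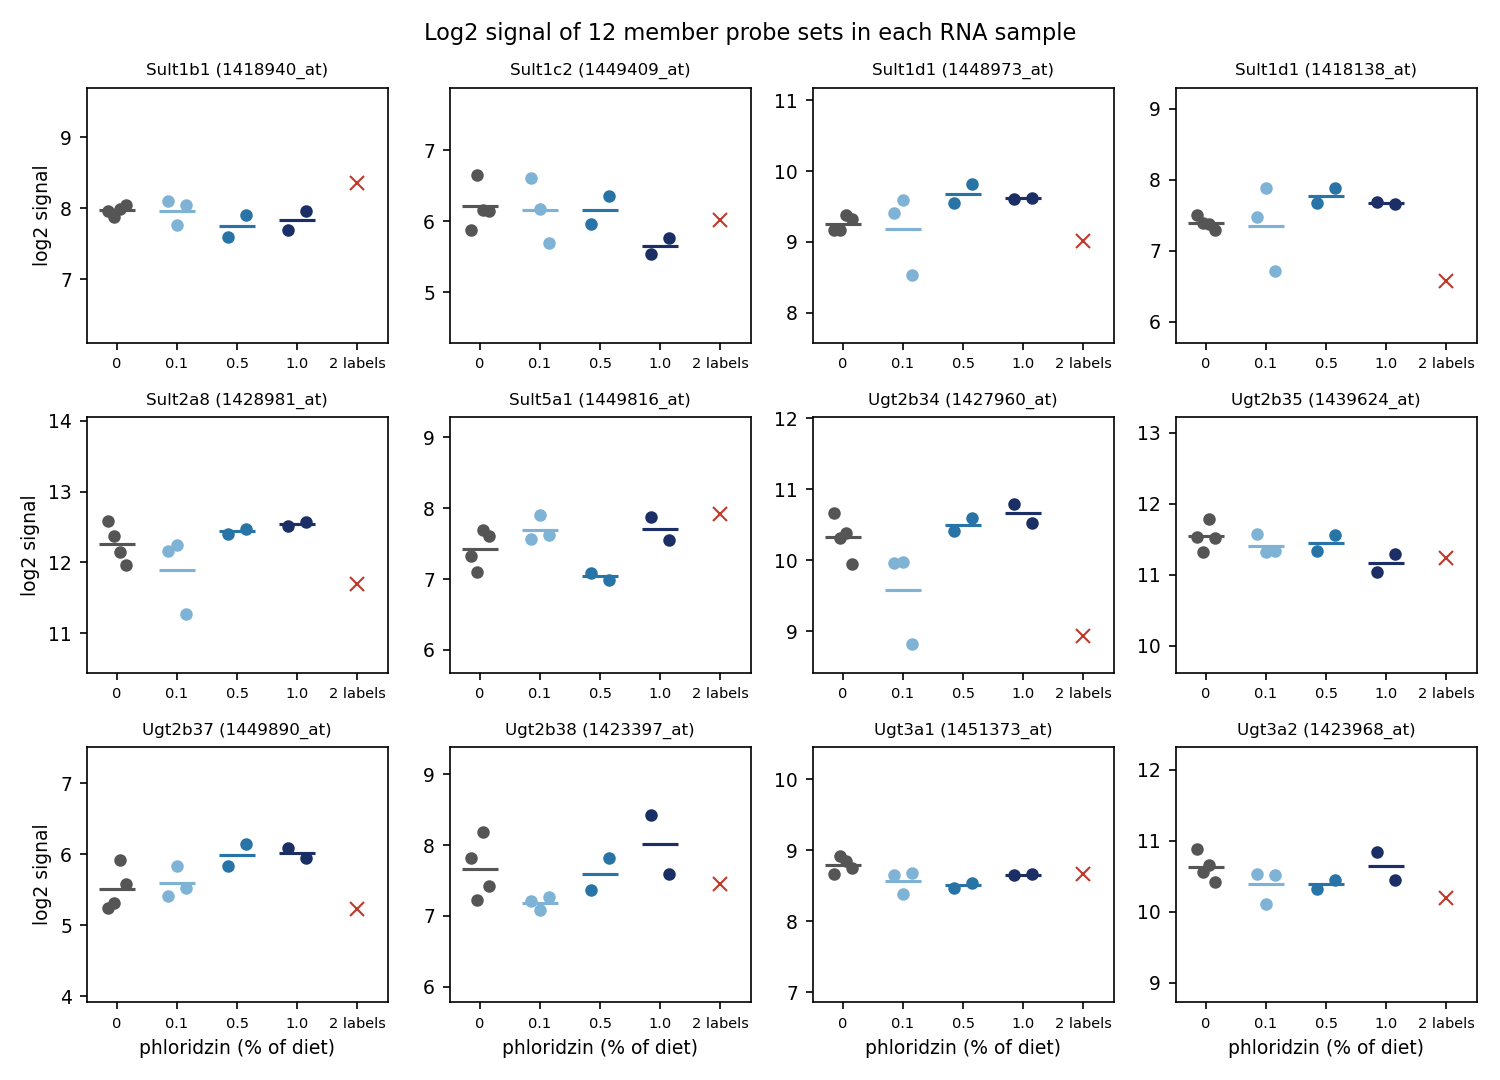
Log2 signal (y axis, same span in every panel) of 12 member probe sets in each RNA sample, by phloridzin percent of the diet (x axis); points are RNA samples, bars are diet means, and the cross is the RNA that carries the labels of 2 diets. Ugt2b34, Sult2a8 and Sult1d1 each have 1 low point at 0.1% (8.82, 11.27 and 8.53). Sult1d1, Sult5a1 and Ugt3a1 at 0.5% and Sult1c2, Sult1d1, Ugt2b35 and Ugt2b37 at 1.0% did not overlap control. Of all tested probe sets 17.5% and 19.9% did not overlap control at these doses.

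The Ugt3a enzymes differ from the other families in their sugar donors: human UGT3A1 uses UDP-N-acetylglucosamine and human UGT3A2 uses UDP-glucose. Ugt3a1 and Ugt3a2 are neighbours on chromosome 15. Ugt3a1 (1451373_at) read 8.66, 8.93, 8.85 and 8.75 in control liver, 8.66, 8.38 and 8.68 at 0.1%, 8.47 and 8.55 at 0.5%, and 8.65 and 8.67 at 1.0%. Both 0.5% samples lay below all control samples. The change was -0.22 at 0.1% (-0.47 to 0.02), -0.29 at 0.5% (-0.57 to -0.02, limma adjusted p = 0.937) and -0.14 at 1.0% (-0.41 to 0.14).

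The second Ugt3a1 probe set, 1424493_s_at, gave a smaller value at 0.5%. It read 8.55, 8.65, 8.46 and 8.61 in control liver, 8.74, 8.37 and 8.56 at 0.1%, 8.54 and 8.34 at 0.5%, and 8.68 and 8.62 at 1.0%. Its diets overlapped, with changes of -0.02, -0.13 (-0.41 to 0.16) and 0.08. Ugt3a2 (1423968_at) read 10.88, 10.56, 10.66 and 10.43 in control liver, 10.54, 10.12 and 10.52 at 0.1%, 10.32 and 10.45 at 0.5%, and 10.85 and 10.44 at 1.0%. The lowest value was that of 0.1% replicate 4, the sample with the high Actb difference, and all diets overlapped control. The changes were -0.24 (-0.53 to 0.05), -0.25 (-0.58 to 0.09) and 0.01 (-0.32 to 0.35).

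The Ugt1a locus on chromosome 1 joins alternative first exons to shared later exons, and its best-known product, Ugt1a1, glucuronidates bilirubin. The 3 probe sets that cannot separate its transcripts varied little, with a between-sample SD of 0.071 to 0.109. Probe set 1426260_a_at read 12.58, 12.53, 12.59 and 12.57 in control liver, 12.59, 12.43 and 12.62 at 0.1%, 12.42 and 12.50 at 0.5%, and 12.65 and 12.51 at 1.0%. Its changes were -0.02 (-0.19 to 0.15), -0.11 (-0.30 to 0.08) and 0.01 (-0.18 to 0.20), with overlap at 0.1% and 1.0% and both 0.5% samples just below control. Probe set 1424783_a_at changed by -0.03, -0.03 and -0.01. Probe set 1426261_s_at read 11.86, 11.80, 11.82 and 11.85 in control liver, 11.97, 11.61 and 11.70 at 0.1%, 11.62 and 11.68 at 0.5%, and 11.57 and 11.69 at 1.0%. All 4 samples at the higher doses lay below the narrow control range, with changes of -0.18 at 0.5% (-0.40 to 0.04) and -0.20 at 1.0% (-0.43 to 0.02, limma adjusted p = 0.788). A change in 1 Ugt1a transcript that makes up little of the total would not be seen in these probe sets. The probe set shared by Ugt2a1 and Ugt2a2, best known from olfactory tissue, was dim, at 3.53 to 4.49 over all samples.

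Among the phenol sulfotransferases, Sult1d1 had both of its probe sets above control at the 2 higher doses. Sult1d1 sulphonates dopamine and small phenols in mouse and has 2 probe sets. The first, 1448973_at, read 9.17, 9.17, 9.38 and 9.32 in control liver, 9.41, 9.59 and 8.53 at 0.1%, 9.54 and 9.81 at 0.5%, and 9.60 and 9.62 at 1.0%. Every sample at 0.5% and 1.0% lay above every control sample, and so did both 0.1% samples other than replicate 5. The second, 1418138_at, read 7.50, 7.39, 7.38 and 7.29 in control liver, 7.47, 7.88 and 6.71 at 0.1%, 7.67 and 7.88 at 0.5%, and 7.68 and 7.67 at 1.0%. It placed the 0.5% and 1.0% samples above control too, and replicate 5 at 0.1% lowest again.

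For 1448973_at the mean was 9.68 ± 0.19 at 0.5% (SD, n = 2), 9.61 ± 0.02 at 1.0% (SD, n = 2) and 9.26 ± 0.11 in control liver (SD, n = 4). The changes were 0.42 at 0.5% (-0.04 to 0.88, 1.34-fold) and 0.35 at 1.0% (-0.11 to 0.82, 1.28-fold), with limma adjusted p of 0.962 and 0.804. At 0.1% the change was -0.08 (-0.49 to 0.33), and 0.24 without replicate 5. Without scaling between arrays the value at 1.0% turned to -0.10, while that of all probe sets was -0.31. The slope was 0.46 ± 0.20 per 1% of phloridzin (SE, limma adjusted p = 0.569). For 1418138_at the changes were -0.03, 0.39 (-0.11 to 0.89) and 0.28 (-0.22 to 0.78). Sult1d1 accounted for 2 of the 4 members whose 0.5% samples did not overlap control, where 17.5% of all tested probe sets did not overlap. It also accounted for 2 of 6 such members at 1.0%, where the share of all probe sets was 19.9%. Of the 19 members these are 21.1% and 31.6%. At 0.1%, 0 members and 8.54% of all probe sets did not overlap control.

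Sult1c2, of the phenol sulfotransferase family and on chromosome 17, had the most negative change of the members at 1.0%, and it did not pass the test. It read 5.88, 6.66, 6.17 and 6.15 in control liver, 6.61, 6.17 and 5.69 at 0.1%, 5.97 and 6.35 at 0.5%, and 5.53 and 5.76 at 1.0%. Both 1.0% samples lay below all control samples. The change at 1.0% was -0.57 (-1.13 to 0.00, 0.676-fold, limma adjusted p = 0.764), against -0.06 at 0.1% (-0.56 to 0.44) and -0.05 at 0.5% (-0.62 to 0.52).

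Sult1a1 and Sult1b1 had samples of every diet inside the control range. Sult1a1 (1427345_a_at), the main phenol sulfotransferase of liver, read 10.51, 10.98, 10.61 and 10.94 in control liver, 10.94, 11.03 and 10.41 at 0.1%, 10.78 and 10.73 at 0.5%, and 10.90 and 10.81 at 1.0%. Control samples spanned most of the range, and the changes were 0.03 (-0.28 to 0.35), -0.00 (-0.36 to 0.35) and 0.09 (-0.26 to 0.45). Sult1b1 (1418940_at), which sulphonates thyroid hormones and phenols in human, read 7.96, 7.88, 7.99 and 8.05 in control liver, 8.10, 7.76 and 8.05 at 0.1%, 7.59 and 7.90 at 0.5%, and 7.69 and 7.97 at 1.0%. The sample with the high acute phase score was the lowest of the 11, and each diet overlapped control. The changes were -0.00 (-0.28 to 0.28), -0.22 (-0.55 to 0.10) and -0.14 (-0.46 to 0.18), and without that sample the value at 0.5% was -0.07. In that sample the clock output score was also low, at -0.96, and the part of both scores in this value was not tested.

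Sult2a8 sulphonates bile acids in mouse liver, and its probe set 1428981_at was lowest in the sample where Ugt2b34 was lowest. It read 12.58, 12.38, 12.15 and 11.96 in control liver, 12.17, 12.25 and 11.27 at 0.1%, 12.40 and 12.48 at 0.5%, and 12.52 and 12.57 at 1.0%. Replicate 5 at 0.1% was lowest by a wide margin, and every other sample at any dose was inside the control range. The change was -0.37 at 0.1% (-0.79 to 0.04), 0.17 at 0.5% (-0.30 to 0.64) and 0.28 at 1.0% (-0.19 to 0.75). Without replicate 5 the value at 0.1% was -0.06.

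Sult5a1 (1449816_at) separated the 0.5% diet from the other doses. It read 7.32, 7.09, 7.70 and 7.60 in control liver, 7.57, 7.90 and 7.62 at 0.1%, 7.09 and 6.98 at 0.5%, and 7.87 and 7.55 at 1.0%. Both 0.5% samples lay below every other sample in the data, although the margin to the lowest control sample was narrow. Against control the change was 0.27 at 0.1% (-0.08 to 0.62), -0.39 at 0.5% (-0.78 to 0.00) and 0.28 at 1.0% (-0.11 to 0.67). Between doses, the difference of 0.5% minus 0.1% was -0.66 (-1.07 to -0.24, limma adjusted p = 0.37), and 1.0% exceeded 0.5% by 0.67 (0.22 to 1.13, adjusted p = 1). Over the 4 diets the limma F-test gave an adjusted p of 0.444. Both 0.5% samples also had acute phase scores above those of control, at 1.72 and 0.49. So did the 1.0% sample of replicates 2, 3, 5 and 6, at 0.56, in which Sult5a1 read 7.87. Other scores moved in the same 0.5% samples. Clock output genes were at -0.96 in replicates 1, 2, 3 and 6 and 0.22 in replicates 4 and 5, against -0.18 to 0.20 in control samples. Neutrophil markers were at 0.04 and 0.97 in these samples, against -0.34 to 0.19 in control samples. Male-biased liver genes were at -0.28 and -0.33, against -0.23 to 0.20 in control samples, with Moxd1 of that list at the floor of 3.00 in both. The part of these scores in the Sult5a1 values was not tested.

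**Figure D3:**
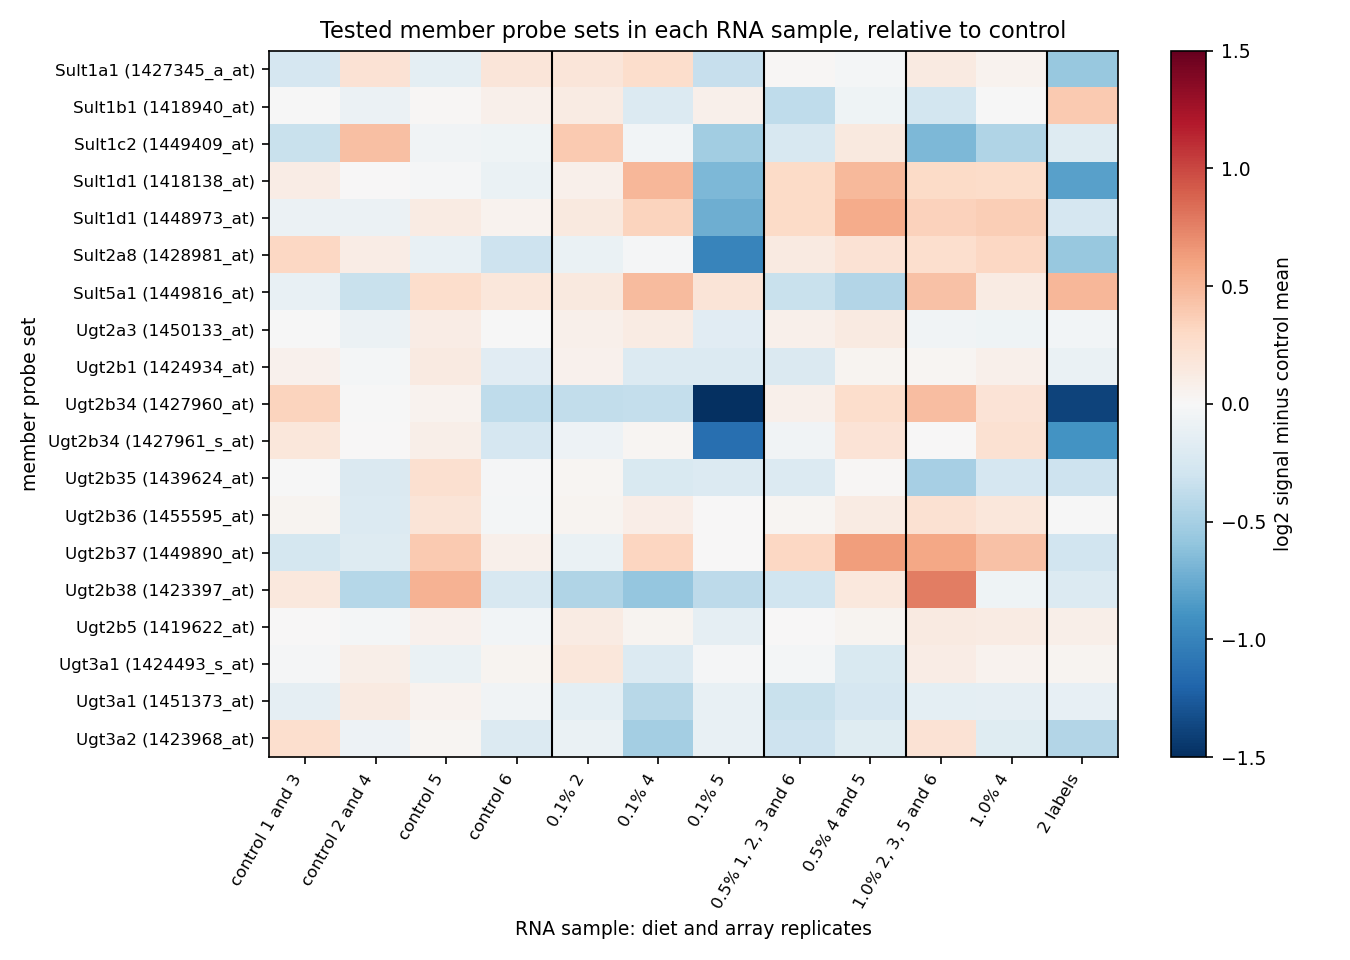
Log2 signal minus the control mean (colour, clipped at 1.5 either way) of the 19 tested member probe sets (rows) in each RNA sample (columns), with black lines between diets and the RNA that carries 2 diets' labels at the right. The column of 0.1% replicate 5 is dark blue for both Ugt2b34 probe sets (-1.51 and -1.13) and blue for Sult2a8, and pale for most of the other probe sets.

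The lowest values of Ugt2b34, Sult1d1, Sult2a8 and Sult1c2 at 0.1% came from 1 sample, replicate 5. So did those of Sult1a1, Ugt2a3, Ugt2b5, Ugt2b1 and Ugt2b36, by smaller margins from the control mean, but those of the remaining members did not. Ugt2b38 was low in replicates 2, 4 and 5, at -0.45, -0.58 and -0.39 from the control mean. Ugt3a2 and Ugt3a1 (1451373_at) were lowest in replicate 4, at -0.51 and -0.41, against -0.11 and -0.11 in replicate 5. Replicate 5 at 0.1% was the lowest of the 11 samples for 8 of 19 members, or 42.1%, against 20.1% of all tested probe sets. It lay more than 0.5 below the control mean for 6 members: both Ugt2b34 and both Sult1d1 probe sets, Sult2a8 and Sult1c2, at -1.51 to -0.52, where 17.5% of all tested probe sets did. It was the highest of the 11 for 0 members, against 22.1% of all tested probe sets. Its values of Ugt2b36, Ugt2b37 and Ugt3a1 (1424493_s_at) differed from the control mean by 0.00, 0.01 and -0.01. The hepatocyte markers of this sample were -0.996 for Apob, -0.52 for Tat, -0.36 for Fgb and -0.05 for Cps1 relative to the control mean, while Apoa1, Alb and Ttr were at 0.02, 0.06 and 0.08. Of 22 gene lists scored in each sample, 7 were below the control range in this sample and 8 above it. The other phloridzin samples had 5 to 8 lists below that range and 2 to 9 above it, so such departures were common to all of them. Male-biased liver genes were at -0.35 in replicate 5, against -0.23 to 0.20 in control samples, and both 0.5% samples lay below that range too. Moxd1 of that list was at or near the floor in these samples. Kupffer cell markers were at -0.27 in replicate 5, against -0.06 to 0.11 in control samples. They were also below control in 0.1% replicates 2 and 4, at -0.15 and -0.35, and in both 1.0% samples, so neither departure was particular to replicate 5. The part of these scores in the transferase values was not tested.

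**Figure D4:**
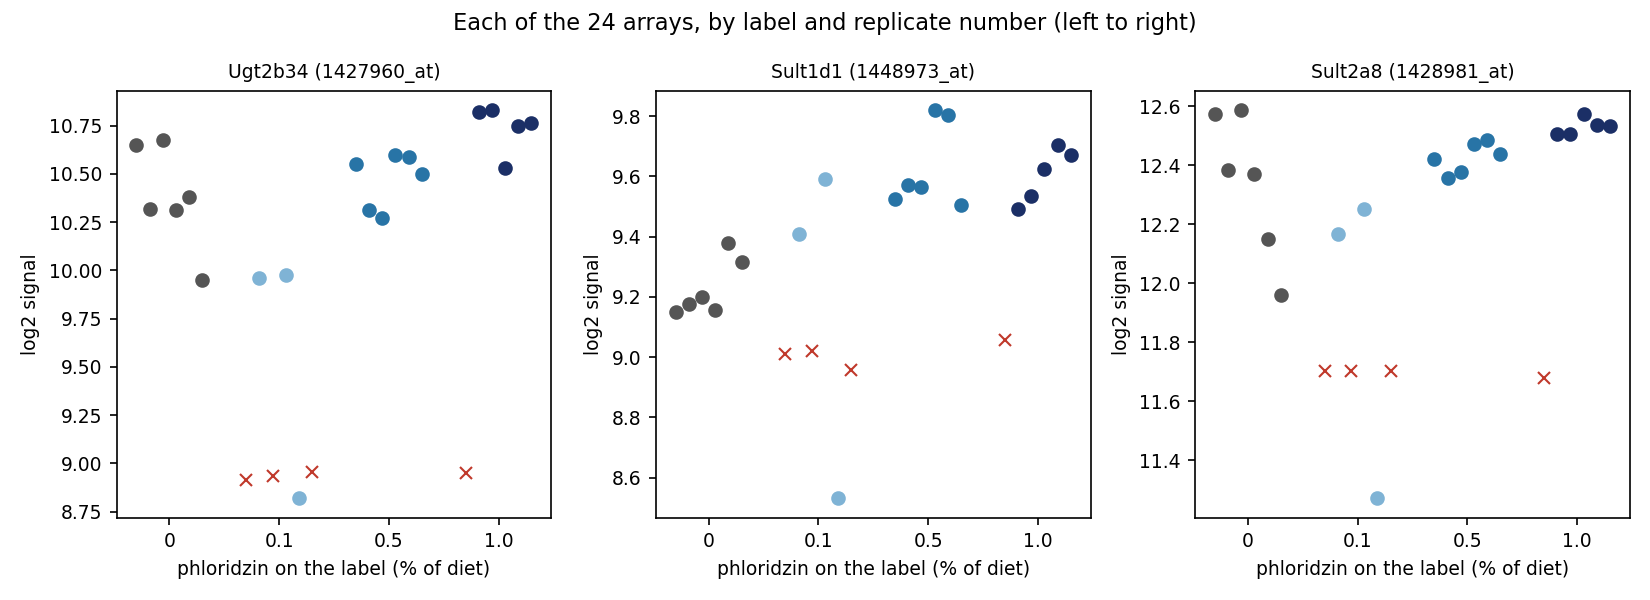
Log2 signal (y axis) of Ugt2b34, Sult1d1 and Sult2a8 on each of the 24 arrays, by the phloridzin percent on the label (x axis) and by replicate number within a diet; crosses are the 4 arrays of the RNA that carries labels of 2 diets. For Ugt2b34 the crosses lie between 8.92 and 8.95 whichever label they carry, near 0.1% replicate 5 at 8.82.

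The genes that supply the cosubstrates gave no call either. In these and all other gene lists, counts at an unadjusted p under 0.05 stand against the 9.26%, 5.22% and 6.51% of all tested probe sets at the 3 doses. Among 10 tested genes of UDP-glucuronate synthesis, use and transport, 0 were called at any dose in limma, with 0, 2 and 1 at an unadjusted p under 0.05 and median changes of -0.09, -0.06 and 0.00. The member with the lowest F-test p was Slc35d2, a nucleotide sugar transporter, at 0.08, -0.48 and -0.10 over the 3 doses (F adjusted p = 0.48). Akr1a1, which reduces glucuronate on the way to ascorbate, followed at -0.03, -0.23 and -0.24. Among 12 genes of PAPS supply and sulphate handling, 0 were called, with 2, 2 and 1 at an unadjusted p under 0.05. Cth, which makes cysteine from cystathionine, read 11.43, 11.45, 11.55 and 11.41 in control liver, 11.30, 11.10 and 11.15 at 0.1%, 11.06 and 11.17 at 0.5%, and 11.33 and 11.16 at 1.0%. All 7 phloridzin samples lay below all 4 control samples, with changes of -0.28, -0.34 and -0.22 (limma adjusted p = 0.413, 0.605 and 0.761). At each dose taken singly, 8.54%, 17.5% and 19.9% of all probe sets did not overlap control in either direction. Slc26a1, a sulphate transporter, changed by 0.40, -0.47 and -0.10.

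Enzymes that undo conjugation, the other phase 2 transferases and the transporters of conjugates likewise held 0 called genes in limma. Of 8 tested hydrolases, 1, 0 and 0 had an unadjusted p under 0.05, and Arsa, a lysosomal sulphatase, was at 0.36, 0.08 and -0.05. Of 9 other phase 2 transferases, 1, 1 and 0 did, and Nnmt, which methylates nicotinamide, was at 0.50, 0.99 and -0.51 with a control range of 4.22 to 5.40. Of 12 transporters, 2, 0 and 1 did, against the same 9.26%, 5.22% and 6.51% of all probe sets. Of the 12, 83.3%, 66.7% and 75% were lower than control, against 50.4%, 51.2% and 52.1% of all tested probe sets. Without scaling 91.7%, 100% and 83.3% of the transporters were lower, and so were 70.2%, 74.2% and 79.9% of all. Abcc4, an exporter of conjugates, was dim and read 4.12, 4.49, 4.29 and 4.31 in control liver, 3.70, 3.11 and 4.11 at 0.1%, 3.60 and 4.07 at 0.5%, and 3.75 and 3.15 at 1.0%. Every phloridzin sample lay below every control sample, but the margin was very narrow, at 4.114 in 0.1% replicate 5 against 4.117 in control replicates 1 and 3. At each dose taken singly, 8.54%, 17.5% and 19.9% of all probe sets did not overlap control in either direction. The share that did so at all 3 doses was not counted. The changes were -0.66, -0.47 and -0.85 (limma adjusted p = 0.495, 0.988 and 0.688).

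Genes of the receptors that are known to regulate these enzymes were examined beside them. Among 18 receptors and factors, 0 were called, with 3, 3 and 0 at an unadjusted p under 0.05. Nr1h4, the bile acid receptor FXR, changed by 0.42, 0.36 and -0.29 (F adjusted p = 0.333), and Cebpa by 0.37, -0.56 and 0.04 (F adjusted p = 0.342). Among 18 targets of CAR, PXR, AhR, PPARA and NRF2, 0 were called, and 3 at each dose had an unadjusted p under 0.05, against 9.26%, 5.22% and 6.51% of all probe sets. Of the 18 targets, 72.2%, 50% and 88.9% were lower than control, against 50.4%, 51.2% and 52.1% of all probe sets. Without scaling the shares were 88.9%, 88.9% and 94.4% of the targets, against 70.2%, 74.2% and 79.9% of all. Cyp2b10, a sensitive target of CAR, was dim and read 3.75, 4.40, 6.07 and 5.22 in control liver, 3.51, 4.26 and 3.75 at 0.1%, 3.23 and 3.40 at 0.5%, and 3.81 and 3.00 at 1.0%. Control samples spread widely and overlapped all but the 0.5% group, and the change at 0.1% was -1.02 (limma adjusted p = 0.495). At 0.5% and 1.0% an array read at the floor, which only bounds the signal, so no change is given there. Tiparp, another gene of this list, read higher at 0.5% and 1.0%, where all samples lay above the control range of 5.63 to 6.07. The margin was narrow in 1.0% replicate 4, at 6.10. At 0.1% Tiparp read 5.32 to 5.97. Gclc lay below control at 0.1%, at 10.51 to 10.67 against 10.71 to 10.92, and overlapped it at the higher doses. At the 3 doses 8.54%, 17.5% and 19.9% of all probe sets did not overlap control. Several transferases differ by sex in mouse liver, and 0 of 8 female-biased and 0 of 10 male-biased genes were called, with 2, 2 and 3 and with 3, 4 and 1 at an unadjusted p under 0.05. The female-biased score was -0.47 and -0.26 in the 1.0% samples, below the -0.13 to 0.11 of control samples, and within that range in the others. At 1.0% the median change of these genes was -0.53, with 3 higher and 5 lower. All of them but Fmo2 were dim, with means of 3.77 to 5.35. Cyp17a1, Acot3 and Cyp2b9 read at the floor on 4, 2 and 2 arrays, where a value only bounds the signal. The male-biased score was below its control range in 0.1% replicate 5 and both 0.5% samples and above it in 1.0% replicate 4. One gene of that list, Moxd1, read at the floor on 8 arrays. It read 3.16 in 0.1% replicate 5, 3.00 in both 0.5% samples and 6.86 in 1.0% replicate 4, against 3.00 to 6.63 in control samples. The score without Moxd1 was not computed. The part of these scores in the transferase values was not tested.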

How the data were processed

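Liver transcripts were measured on 24 1-colour Affymetrix arrays. The deposited table holds a linear intensity per probe set and array; how the authors summarised probes, corrected background or scaled arrays is not given in the sources used here. Array medians ran from 9.49 to 18.0, so the absolute scale is unknown. Per the labels' protocols, RNA was copied from an oligo(dT) primer and labelled with biotin.

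Probe sets were named from the platform annotation (1 symbol for 34945, several for 932, none for 9160). All 29 member Entrez identifiers were found in the RefSeq table of GRCm38.p6, with 0 changed symbols. Promoter sequences are RefSeq's of GRCm38.p6, and 21 of 24 member genes had an entry.

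Intensities were quantile-normalized between arrays, floored at 8 (3.00 on the log2 scale, 4.62% of values) and log2-transformed. Array pairs with an SD of the log2 difference under 0.08 were averaged. Sets whose distance over the 200 most variable genes was under 1.3 times that over other genes were joined (ratios 0.938 and 1.18, next 1.42). Both limits were set after the data had been seen. The lowest 40% of probe sets by mean over all samples and 64 control probe sets were left out, which kept 27001.

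Each comparison was tested in limma 3.58.1 (R 4.3.3; lmFit, eBayes with trend) in a single model of all 4 diets, which has 7 residual degrees of freedom. Tests were two-sided, with Benjamini-Hochberg adjustment over all 27001 probe sets and a threshold of 0.05. The fit was checked on simulated data. Named members were the up to 4 per family with the lowest F-test p and the brightest of each family; named list genes were the up to 3 with the lowest F-test p; other members named with values were added because every member is accounted for. The members, the gene lists and the rules were chosen with earlier results of these data known. Changes understate those of dim transcripts. Alternatives covered scaling, floor, filter, choice of probe sets, joining of arrays, eBayes settings and leaving out samples. Figures were drawn with matplotlib 3.10.9 under Python 3.11.15.

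Arrays that share a replicate number did not deviate together: of 36 such pairs 3 correlated above 0.1 (median -0.00659), and 4 of 24 arrays correlated best with their own number.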

Additional observations from a re-analysis of the deposited data

Results flagged for a closer look

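A test for outlying samples, meant for diets of 4 to 10 samples, was applied to the 4 control samples of 23 probe sets and singled out 1 value. The phloridzin diets had fewer samples and were not tested. In control liver the dim probe set shared by Ugt2a2 and Ugt2a1 (1421484_at) read 4.37 in the RNA of replicates 1 and 3, against 3.86 to 3.91 in the other 3 control samples (gap over range 0.906). The 2 arrays behind that value read 4.25 and 4.49. For this probe set repeat arrays of 1 RNA differed by an SD of 0.368, more than the 0.269 between RNA samples. Chance alone singles out about 1 in 20 groups.

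In the RNA that carries the labels of both 0.1% and 1.0% phloridzin, which entered no comparison, 2 member probe sets were above all 4 control samples and above all 11 samples of the fit. Sult1b1 (1418940_at) read 8.36 there, against 7.88 to 8.05 in control liver. Sult5a1 (1449816_at) read 7.92 there, against 7.09 to 7.70 in control liver. These differences were not tested.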

How the results depend on the processing

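The 0 members called in limma recurred under most of the 28 or 29 settings to each comparison, and in all of those that left out 1 RNA sample (0 to 0 members). The exceptions treated arrays as samples. With all 24 arrays, members called were 5 at 0.1%, 1 at 0.5%, 2 at 1.0%, 13 in the F-test, 8 for 0.5% against 0.1%, 6 for 1.0% against 0.1% and 3 for 1.0% against 0.5%. With all 24 arrays and a replicate block they were 5 at 0.1%, 2 at 1.0%, 13 in the F-test, 8, 7 and 3, although the numbers do not pair the samples. Those fits count repeat hybridisations as separate samples. Without joining by fingerprint, 1 member (Ugt2b34) was called for 1.0% against 0.1%.

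Over the whole table, calls at 0.1%, 0.5%, 1.0%, in the F-test and for the slope moved widely where they moved at all. With all 24 arrays they were 4689, 805, 660, 8347 and 235, and with the replicate block 4846, 732, 558, 8329 and 86. Without a filter they were 3, 74, 39, 100 and 7, and without joining 3, 30, 10, 95 and 13. With the 3 samples that stood apart left out (chosen after seeing the data) they were 0, 28, 4, 9 and 6. Without joining and with RNA of 2 diets under each label, calls were 0 at 0.1%, 0 at 1.0% and 0 in the F-test. Without scaling they were 0, 2, 0, 1 and 2. Centring on the median gave 0 at 1.0% and 7 for the slope, and scaling on the 75th percentile 0 at 1.0%. A floor of 4 gave 2 at 0.5%, 2 at 1.0% and 1 in the F-test, a floor of 16 gave 0 at 1.0%, 1 in the F-test and 1 for the slope, and 16 added gave 1 in the F-test. Leaving out the lowest 60% gave 0 in the F-test. With 1 probe set a gene they were 3 at 0.1%, 1 at 0.5% and 2 at 1.0%. Without the trend they were 0 at 0.1%, 0 at 1.0% and 0 in the F-test, with robust eBayes 3 at 0.1%, and with only the diets compared 1 at 0.5% and 5 at 1.0%. Leaving out 1 RNA sample gave 0 to 2, 0 to 8, 0 to 4, 0 to 8 and 0 to 1.

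Of 1293 single values recomputed for the named members against control, 1230 kept their value within 1 SD and their side of the threshold, 50 moved, 13 passed the threshold in a fit of all 24 arrays, and 84 had the other sign, all without a call. The 7 residual degrees of freedom and signals near the floor limit every value.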

Other observations

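The RNA that carries the labels of 0.1% replicates 1, 3 and 6 and of 1.0% replicate 1 gave values for every member that belong to no diet. It lay within the range of the 11 other samples for 14 of the 19 tested members, above all of them for Sult1b1 and Sult5a1, and below all of them for Sult1a1 at 10.19, Sult1d1 (1418138_at) at 6.58 and Ugt2b37 at 5.23. Ugt2b34 read 8.94 and 10.51 in its 2 probe sets, differences of -1.39 and -0.90 from the control mean that are close to the 8.82 and 10.27 of 0.1% replicate 5. Sult2a8 read 11.70 there, between the 11.27 of 0.1% replicate 5 and the control samples at 11.96 to 12.58. Ugt2b5, Ugt2b36 and both Ugt3a1 probe sets differed from the control mean by 0.09, -0.00, 0.04 and -0.13 in the same RNA. The 4 arrays of this RNA read 8.92 to 8.95 for Ugt2b34 (1427960_at) under either label.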
